A study of Homo sapiens with 27 samples.

Results

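The collagen and laminin genes were followed in MCF10DCIS.com cells given calcium oxalate crystals. MCF10DCIS.com, a line derived from MCF10A breast cells, serves as a model for ductal carcinoma in situ of the breast. Members were taken by symbol alone, as the COL genes numbered by chain and the LAMA, LAMB and LAMC genes. This gave 56 genes, 44 collagens and 12 laminins, of the 60683 genes in the deposited tables. Of these, 33 passed the filter on low counts and were tested, 23 collagens and 10 laminins.

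The study holds 27 libraries of polyadenylated RNA in 6 groups. The controls (7 libraries, A to G) received no crystals. COM cells (4 libraries, A to D) received plates of calcium oxalate monohydrate. The other forms, with 4 libraries each, were crystals of the dihydrate. They had the shape of a dumbbell (DB), a sphere (SPH), a thick bipyramid (TK) or a thin bipyramid (TN). All crystals were given at 0.1 mg/mL, to flasks seeded with 500000 cells 6 h earlier. All groups are 1 cell line without stroma, and how long the cells stayed in contact with crystals is not given here. Separate cultures are not stated for the libraries of a group. The p-values then reflect only how far these samples spread, and that spread may be technical.

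Laminins and collagen IV form the networks of the basement membrane, the sheet under an epithelium that an in situ carcinoma has not yet crossed. A laminin is a trimer of an alpha, a beta and a gamma chain. LAMA3 and LAMB3 chains occur in laminin that anchors basal epithelial cells through integrin and collagen XVII in hemidesmosomes. LAMB1 and LAMC1 are the beta and gamma chains shared by many other laminins. Collagen IV is assembled from COL4A1 and COL4A2 chains in most tissues, while fibrillar collagens such as collagen I are made mainly by fibroblasts.

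The libraries held 13115649 to 38672448 counts each (median 19251210). The serial numbers of the libraries form 3 runs that hold different letters of each group, called library sets here. Set 1 (serial numbers 1 to 10) holds the A and B libraries of all groups but TK, set 2 (11 to 22) holds the controls lettered C, D, E and F, the C library of COM, DB, SPH and TN and all 4 TK libraries, and set 3 (23 to 27) holds control G and the D library of the same 4 forms. The labels do not say what separates the sets, and the fits below have a term for them unless stated otherwise. The library TN B stood apart, with 25250 counts of ALB, the albumin gene of liver, against 0 to 138 in the other 26 libraries. The TN calls of members against control are therefore also given without it. Calls that involve TN in the other gene lists and between pairs of forms are given only with TN B included. The cells carried the basal markers KRT5, at a mean counts-per-million (CPM) level of 2551, and TP63 (106 CPM) and the epithelial marker EPCAM (277 CPM). EPCAM was taken from a list of luminal and general epithelial markers. Its other members were KRT8 (1821 CPM), KRT18 (1562 CPM), CDH1 (241 CPM) and KRT19, which was low at 1.73 CPM. Of the 7 fibroblast markers, DPT had no count in any of the 27 libraries, DCN had none in 24 and LUM none in 20. The others went the other way. FAP, at a mean of 8.81 CPM, and the lower PDGFRA and PDGFRB had counts in all 27 libraries, and THY1 lacked them in 1.

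The promoters of 5 genes that carry the results below are shown first, so that the letters around their start sites can be read beside the values. Each run covers 300 bases around a start site, from RefSeq on GRCh38.p14, 5′ to 3′ on the gene's strand. In every run the capitals mark all matches, on either strand, to the motifs searched. The AP-1 consensus was searched as TGACTCA. For the GC box the letters GGGCGG were used. The search also covered the CCAAT box, by the letters in its name, and the start-site element TATAAA. Such matches describe letters, not sites.
LAMA3, chr18:23872770-23873069, + strand: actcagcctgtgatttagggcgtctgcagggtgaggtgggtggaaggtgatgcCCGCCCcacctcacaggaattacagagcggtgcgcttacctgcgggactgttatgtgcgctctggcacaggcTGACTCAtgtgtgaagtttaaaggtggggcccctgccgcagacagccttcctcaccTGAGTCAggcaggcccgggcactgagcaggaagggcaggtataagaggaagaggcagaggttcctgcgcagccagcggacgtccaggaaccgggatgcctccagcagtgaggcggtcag
LAMB3, chr1:209651325-209651624, - strand: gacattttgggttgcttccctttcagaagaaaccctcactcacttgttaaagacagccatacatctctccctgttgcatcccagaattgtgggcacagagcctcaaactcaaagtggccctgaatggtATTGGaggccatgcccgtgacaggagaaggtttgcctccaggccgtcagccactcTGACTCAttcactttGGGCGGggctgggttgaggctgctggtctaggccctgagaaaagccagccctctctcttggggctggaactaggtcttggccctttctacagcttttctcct
LAMB1, chr7:108003112-108003411, - strand: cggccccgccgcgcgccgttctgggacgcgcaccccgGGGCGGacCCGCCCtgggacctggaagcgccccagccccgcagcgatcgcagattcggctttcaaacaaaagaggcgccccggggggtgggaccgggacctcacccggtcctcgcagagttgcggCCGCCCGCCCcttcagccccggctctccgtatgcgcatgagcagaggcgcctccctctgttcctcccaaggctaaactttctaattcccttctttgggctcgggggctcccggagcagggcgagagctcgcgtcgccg
LAMC1, chr1:183023170-183023469, + strand: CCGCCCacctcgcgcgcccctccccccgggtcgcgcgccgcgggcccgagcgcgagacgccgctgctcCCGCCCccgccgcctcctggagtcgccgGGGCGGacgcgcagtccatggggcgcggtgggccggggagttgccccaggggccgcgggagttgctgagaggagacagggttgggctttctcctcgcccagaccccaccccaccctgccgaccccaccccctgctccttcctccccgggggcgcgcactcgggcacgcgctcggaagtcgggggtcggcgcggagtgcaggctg
COL4A2, chr13:110307034-110307333, + strand: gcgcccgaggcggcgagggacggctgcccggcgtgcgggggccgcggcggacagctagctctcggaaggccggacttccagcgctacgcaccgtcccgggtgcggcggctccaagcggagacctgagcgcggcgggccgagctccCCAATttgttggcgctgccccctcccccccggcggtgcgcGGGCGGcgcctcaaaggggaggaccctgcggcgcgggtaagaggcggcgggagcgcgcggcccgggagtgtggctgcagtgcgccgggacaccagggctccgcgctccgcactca
Of the 56 members, 41 had at least 1 such window. These members had 55 windows. TGACTCA was found in 2 of the 55, and in 4.949% of all 35116 windows of the table. These were LAMA3, at positions -125 and -69 from its start, and LAMB3, at -67. The LAMA3 window lies at the internal start of its shorter transcripts, and the LAMB3 window is 1 of 3 for that gene, shown because it holds this match. GGGCGG was found in 32 of the 55 windows and in 44.954% of all windows. All of the runs shown hold it, LAMA3 at -197 and LAMB3 at -52 included. The COL4A1 and COL4A2 genes run in opposite directions from start sites 127 bases apart, and their windows share 226 bases, chr13:110307108-110307333. The CCAAT and the GGGCGG of the COL4A2 run both lie in that shared stretch. CCAAT was found in 16 of the 55 windows, the LAMB3 window (at -122) among them, and in 34.614% of all windows. TATAAA was found in 8 of the 55, in none of the runs shown, and in 11.53% of all windows.

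Laminin genes were among the most abundant members (levels plotted per kilobase). Levels between genes are CPM per kilobase of effective length, averaged over the 27 libraries. LAMB3 stood at 376, LAMB1 at 162 and LAMA3 at 143. They were followed by LAMA5 at 109, LAMC1 at 106 and LAMB2 at 105. These near-equal levels rest on unlike effective lengths. LAMA5 had 403 CPM over 3709 nucleotides, LAMC1 608 CPM over 5725 and LAMB2 152 CPM over 1447. LAMB3 ranged from 168 to 731 over the libraries, LAMB1 from 114 to 202 and LAMA3 from 69.1 to 259, so these neighbours overlapped, as did LAMA5, LAMC1 and LAMB2. The first collagen in the order was COL17A1, the hemidesmosomal transmembrane collagen, at 101. COL4A2 followed at 66.1, COL9A3 at 64.4, COL12A1 at 55.7, COL8A1 at 47.9 and COL16A1 at 44.6. COL4A1 stood at 18.3, below its network partner COL4A2, and COL18A1, the source of endostatin, at 17.8. LAMA4, an alpha chain of vascular and other basement membranes, stood at 57.3.

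**Figure D1:**
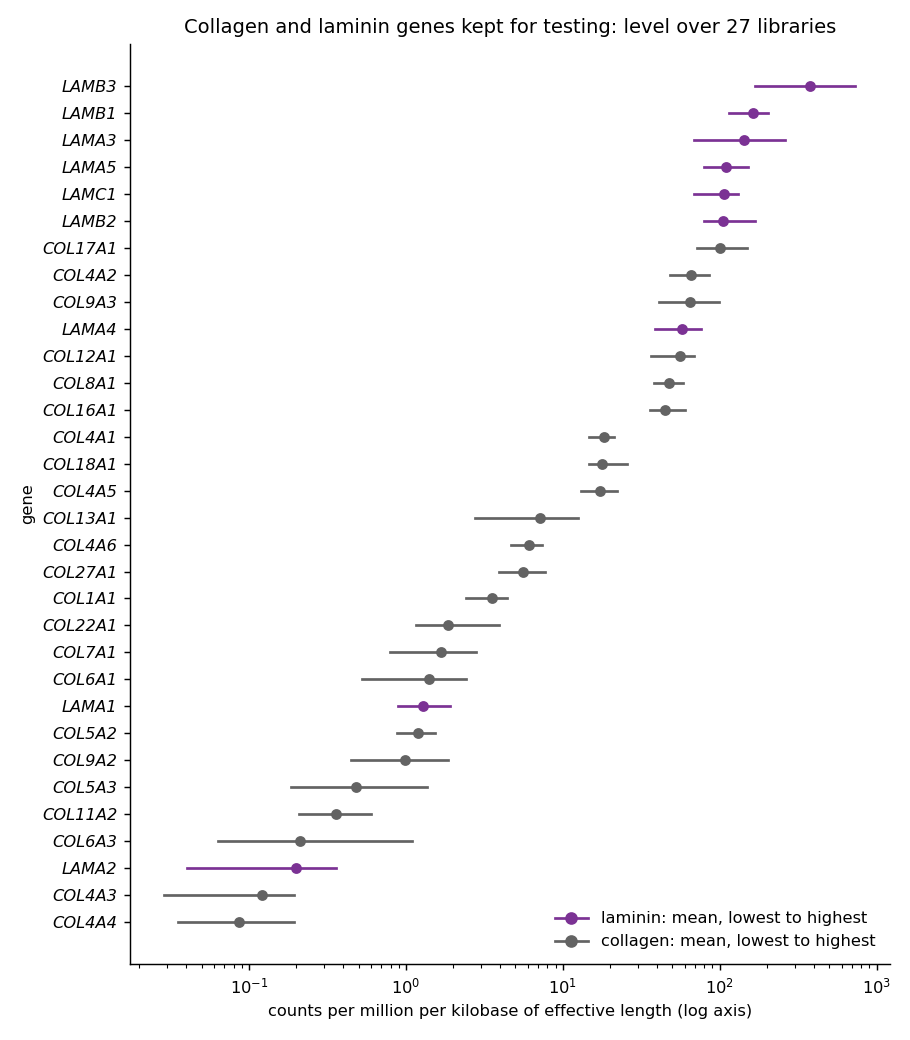
Level of 32 members kept for testing, as CPM per kilobase of effective length on a log axis. Points are means over the 27 libraries and lines run from the lowest to the highest library. LAMB3 and LAMB1 (376 and 162) lie at the top, and COL4A4 at the bottom (0.0861).

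A mean of at least 1 CPM was reached by 30 members, 21 collagens and 9 laminins, and of at least 100 CPM by 13, of which 8 were laminins. Mean levels of the lower collagens tested were 72.2 CPM for COL4A5, 31 for COL4A6, 30.4 for COL27A1, 11.1 for COL13A1, 10.5 for COL1A1, 6.62 for COL5A2, 5.91 for COL22A1 and 2.78 for COL5A3. COL6A1 had a mean of 4.73 CPM, COL7A1 4.06, COL9A2 1.74, COL6A3 1.33, COL11A2 1.27, COL4A3 0.737 and COL4A4 0.711. The lower laminin alpha chains were LAMA1, at 5.82 CPM, and LAMA2, at 0.779. The fibrillar partners of COL1A1 were scarce. COL1A2 and COL3A1 did not pass the filter, nor did COL2A1, COL5A1, COL6A2, COL6A5, COL6A6, COL8A2, COL9A1, COL10A1, COL11A1, COL14A1, COL15A1, COL19A1, COL20A1, COL21A1, COL23A1, COL24A1, COL25A1, COL26A1, COL28A1, LAMB4 and LAMC3. These 23 genes had between 4 and 207 counts each in all libraries together and at most 16 in 1 library.

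The crystal forms differed in how the members moved, and the plot of differences from control shows both directions. The plates came with higher levels of LAMA3 and LAMB3, the dumbbells with higher levels of COL5A3, and the bipyramids with lower levels of laminin and collagen IV genes. Of the collagen IV genes, COL4A1 was also called lower in the dumbbells. A joint test over the 6 groups (edgeR quasi-likelihood F-test, Benjamini-Hochberg adjusted over 16173 genes) called 16 of the 33 members, against 23.2% of all genes tested. For COM 3 members were higher and 0 lower, where 3.94% and 2.42% of all genes were. For DB 4 were higher and 1 lower, against 5.92% and 4.10%. For SPH 0 were higher or lower, against 0.0804% and 0.0309%. For TK 0 were higher and 12 lower, against 8.04% and 7.33%. For TN 0 were higher and 7 lower, against 6.84% and 4.88%.

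The members' median log2 difference was -0.232 for TK and -0.201 for TN, where the medians of all genes tested were -0.016 and -0.003. It was -0.045 for COM, 0.098 for DB and 0.005 for SPH. Below zero lay 27 of the 33 members for TK and 31 for TN, whether called or not. The same count over all genes was not made, and the TN count includes TN B. Of the 7 members called in TN, 7 lay below zero within set 1, 7 within set 2 and 5 within set 3. Their median TN differences in these sets were -0.448, -0.367 and -0.121. All these comparisons share the 7 control libraries. In bulk RNA such as this, fewer cells of a type and less RNA per cell cannot be told apart. For SPH, 0 of 33 members had an unadjusted p under 0.05, and DESeq2 also called 0.

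**Figure D2:**
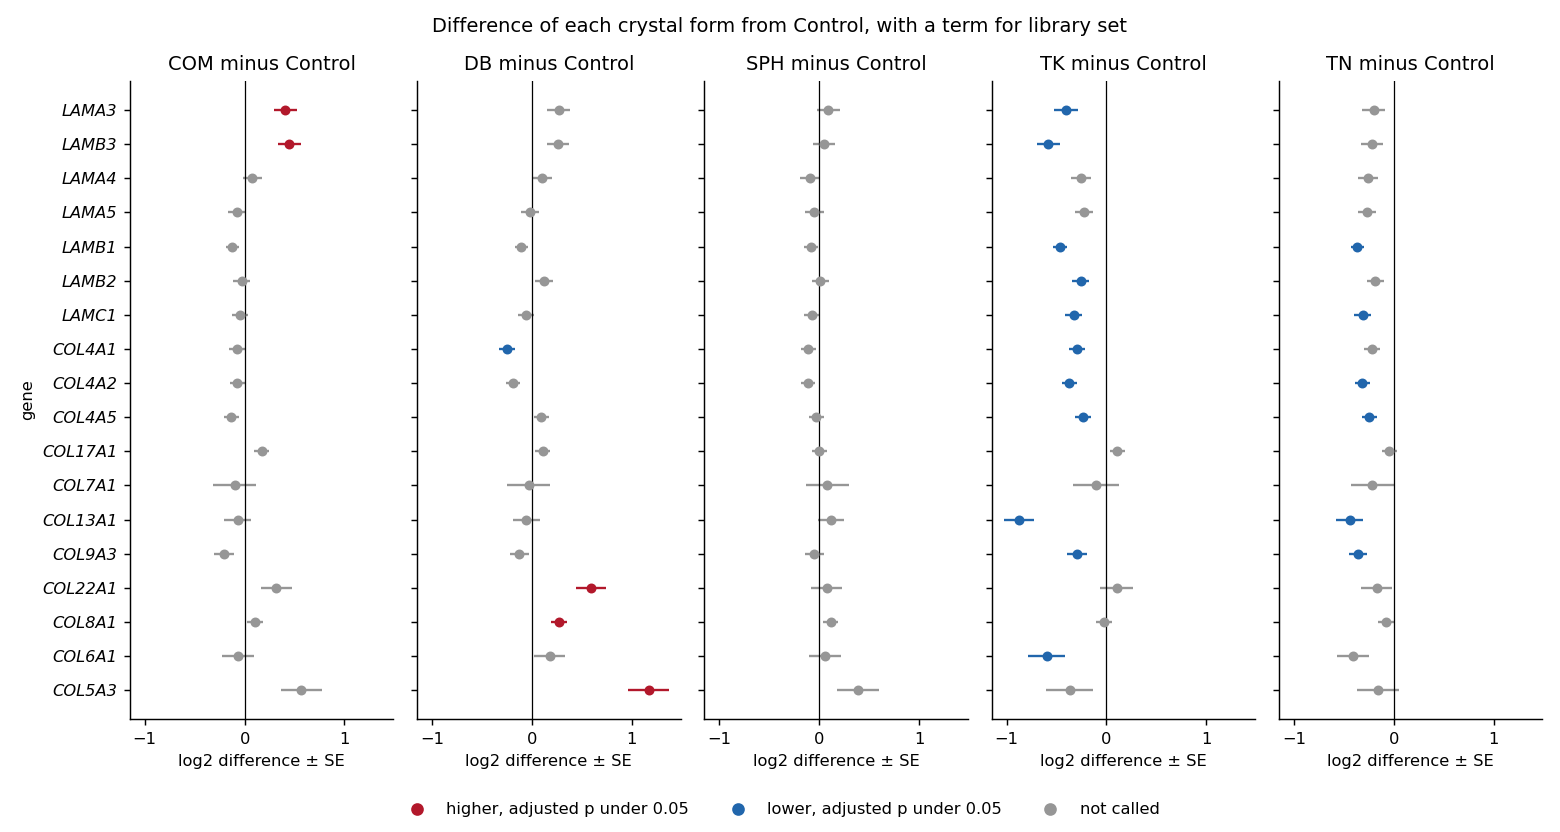
Log2 difference from Control for 18 named members in each of the 5 forms, with the set term. Points are estimates, bars are 1 SE, red and blue mark genes called higher or lower. Red points lie only in the COM and DB panels among these genes, and TK shows the most blue points.

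LAMB3 and LAMA3, laminin chains of hemidesmosomes, rose in COM. LAMB3 (chr1:209614870-209652466), the beta chain, ranged from 832 to 1682 CPM in controls, with a median of 1102. The COM libraries A to D held 2193, 2186, 1079 and 1939 CPM, above all controls except for the C library, the one in set 2. The difference was 0.45 on the log2 scale (SE 0.112, adjusted p = 0.0139), or 1.36-fold, and within sets 1, 2 and 3 it was 0.69, 0.22 and 0.21. Over 27 fits that each left out 1 library, the call was lost without COM A or COM B (adjusted p up to 0.0763). LAMA3 (chr18:23689443-23956222), the alpha chain, ranged from 374 to 812 CPM in controls, with a median of 458. The COM libraries held 1017, 1129, 431 and 974 CPM, and the difference was 0.41 (SE 0.115, adjusted p = 0.032). Within the sets it was 0.73, 0.01 and 0.26, and the call was lost without COM A, COM B, control A, control B or control G (adjusted p up to 0.171). Without the set term LAMA3 and LAMB3 missed the threshold in COM (adjusted p = 0.118 and 0.0856). In DB the libraries held 1560.1, 1652, 939.6 and 2501 CPM of LAMB3 and 883, 945, 392 and 1023 of LAMA3. These differences, 0.26 and 0.27, did not pass the test (adjusted p = 0.136 and 0.144).

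**Figure D3:**
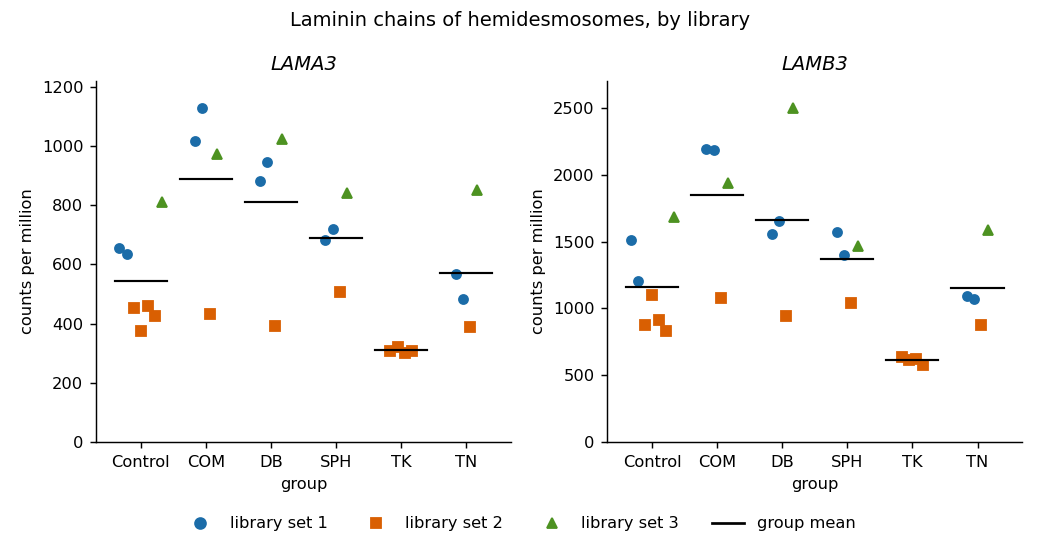
CPM of LAMA3 and LAMB3 in each library by group, with colour and shape for the library set and a line for the group mean. The 4 TK libraries lie below all 7 controls in each panel, and the set 2 libraries of COM and DB lie among the controls.

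In TK both chains fell. LAMB3 held 639.6, 612, 619 and 575 CPM in TK A to D, and LAMA3 held 307, 322, 302 and 308. Every TK library lay below every control for both, including the 4 controls of the same set. LAMB3 fell by 0.58 (SE 0.114, adjusted p = 0.00127) and LAMA3 fell by 0.41 (SE 0.118, adjusted p = 0.0197). Within set 2 alone the differences were -0.61 and -0.47. LAMB3 kept its call in all 27 fits that left out 1 library, while LAMA3 lost it without control C, control E, TK A, TK C or TK D (adjusted p up to 0.0656).

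In TN the libraries held 1094, 1069.7, 872 and 1587 CPM of LAMB3, and 567, 484, 389 and 850.0 of LAMA3. These overlapped the controls, and the differences of -0.22 and -0.20 did not pass the test (adjusted p = 0.218 and 0.276). In SPH the differences were 0.05 for LAMB3 and 0.09 for LAMA3, with SEs of 0.112 and 0.115.

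The beta and gamma chains shared by most other laminins were lower under both bipyramids. LAMB1 (chr7:107923799-108003255) ranged from 598 to 746 CPM in controls, with a median of 699. The TK libraries held 499.9, 561, 496 and 534 CPM, all below the lowest control. LAMB1 fell by 0.47 in TK (SE 0.069, adjusted p = 8.15e-05), a level decreased by 27.8%. The TN libraries held 428, 418, 603 and 587 CPM, of which the C library alone reached the control range. LAMB1 fell by 0.36 in TN (SE 0.068, adjusted p = 0.00105), and within the sets the TN difference was -0.57, -0.26 and -0.12. Both calls held in all 27 fits that left out 1 library, TN B among them. LAMB1 lies against DLD on the opposite strand, and with the strand setting unknown reads in the overlap cannot be told apart.

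LAMC1 (chr1:183023460-183145592) ranged from 597 to 749.8 CPM in controls, with a median of 640.1. The TK libraries held 566, 586, 533 and 600.4 CPM and the TN libraries 445, 390.5, 629 and 613. The set 2 controls, at 640.1 to 749.8 CPM, lay above all TK libraries, while control G at 597 did not. LAMC1 fell by 0.33 in TK (SE 0.084, adjusted p = 0.00939) and by 0.31 in TN (SE 0.082, adjusted p = 0.0143). Without the set term the TK difference was -0.23 (adjusted p = 0.132), and without TK C the adjusted p was 0.0553. The TN difference was -0.59 in set 1, -0.18 in set 2 and 0.04 in set 3, and its call was lost without TN A or TN B (adjusted p up to 0.077).

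Of the remaining laminin chains, LAMB2, the beta chain of mature basement membranes, fell in TK. Its TK libraries held 116, 118, 114 and 115 CPM, below the control range of 127 to 185 with a median of 161. The fall by 0.26 (SE 0.089) stood at the threshold (adjusted p = 0.0495) and was lost in 23 of the 27 fits without 1 library. LAMA4 held 144, 154, 141 and 148 CPM in TK, below the control range of 169.5 to 194. Its difference of -0.255 did not pass the test against control (adjusted p = 0.0913), although the joint test over the groups called it (adjusted p = 0.0349). LAMA5, the alpha chain most common in adult epithelia, held 345, 372, 316 and 343 CPM in TK and ranged from 365 to 480.4 in controls, so the groups overlapped. Its differences were -0.225 in TK and -0.27 in TN (adjusted p = 0.11 and 0.0576). LAMA5 overlaps ADRM1 on the opposite strand.

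**Figure D4:**
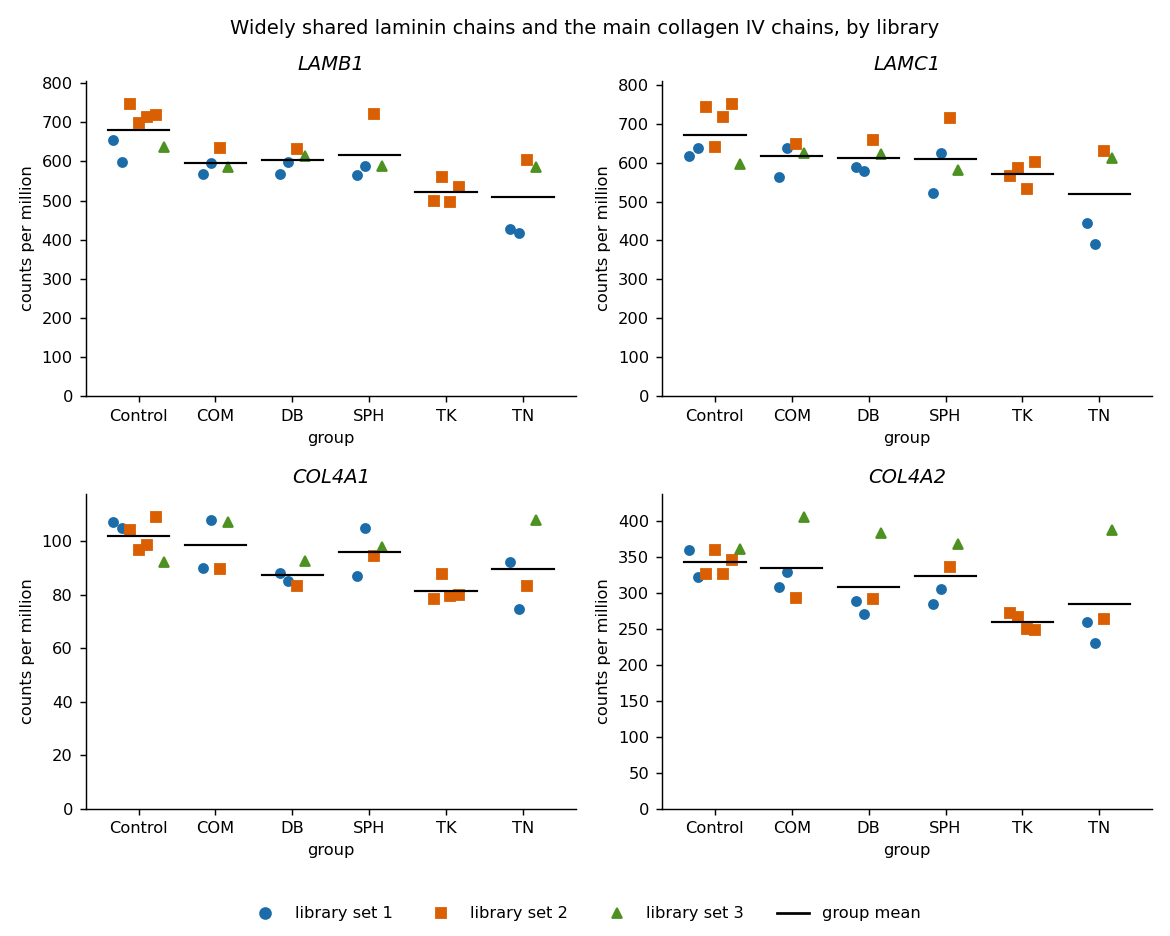
CPM of LAMB1, LAMC1, COL4A1 and COL4A2 in each library by group, with colour and shape for the library set and a line for the group mean. TK libraries lie below all controls for LAMB1, COL4A1 and COL4A2, and TN B, the library with the albumin counts, is the lowest of all 27 in each panel.

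The main collagen IV chains were lower in TK too. COL4A2 (chr13:110305812-110513209) ranged from 321 to 360.3 CPM in controls, with a median of 345. The TK libraries held 272, 266, 249.8 and 248 CPM and the TN libraries 259, 229.6, 263 and 387. All TK libraries and 3 of the 4 TN libraries lay below every control. The DB libraries held 288, 269.9, 291 and 383 CPM, so DB A, DB B and DB C also lay below every control. The DB difference of -0.19 did not pass the test (adjusted p = 0.0992). COL4A2 fell by 0.37 in TK (SE 0.074, adjusted p = 0.00137) and by 0.32 in TN (SE 0.073, adjusted p = 0.00607), and both calls held in all 27 fits that left out 1 library. The TN difference was -0.48 in set 1, -0.37 in set 2 and 0.10 in set 3, and it missed the threshold without the set term (-0.27, adjusted p = 0.187).

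COL4A1 (chr13:110148963-110307233), which starts from the stretch shared with COL4A2, ranged from 92.2 to 109 CPM in controls, with a median of 104. The TK libraries held 78.5, 87.6, 79.3 and 80 CPM, below every control. COL4A1 fell by 0.30 in TK (SE 0.080, adjusted p = 0.0134), a call lost without TK A, TK C or TK D (adjusted p up to 0.0626). The DB libraries held 88, 85.2, 83.1 and 92.4 CPM, a fall by 0.25 (SE 0.078, adjusted p = 0.0438) whose call was lost in 20 of the 27 fits without 1 library. In TN the difference was -0.22 (adjusted p = 0.0718). COL4A1 and COL4A2 overlap at their 5′ ends on opposite strands in GENCODE 29.

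The other collagen IV pairs also lie head to head. COL4A5, another collagen IV chain, held 54.3, 64.6, 53.9 and 63.3 CPM in TK and 59.2, 66.7, 64.9 and 73.3 in TN. Controls ranged from 63.2 to 86.7 with a median of 73.8. COL4A5 fell by 0.23 in TK (SE 0.080, adjusted p = 0.0487) and by 0.24 in TN (SE 0.077, adjusted p = 0.0371). The calls were lost in 24 and in 6 of the 27 fits without 1 library, the latter without control A, B, C or G, TN A or TN B. For COL4A5 the TN difference was -0.45 in set 1, -0.05 in set 2 and -0.17 in set 3. It missed the threshold without the set term (-0.18, adjusted p = 0.31). Its neighbour COL4A6 differed by -0.18 in TK and by -0.18 in TN (adjusted p = 0.167 and 0.164). COL4A3 and COL4A4, below 1 CPM, differed by -0.57 and 0.10 in TK with SEs of 0.342 and 0.425, so a change of the size seen in COL4A2 was not detectable at this depth.

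Of the transmembrane and anchoring collagens, COL13A1 gave the largest called difference of any member in TK. COL13A1 (chr10:69801867-69964275), a collagen of cell adhesion sites, held 4.83, 4.7, 4.58 and 4.27 CPM in TK, and controls ranged from 8.39 to 17 with a median of 10.5. It fell by 0.88 (SE 0.154, adjusted p = 0.000421), a level decreased by 45.5%, and within set 2 it fell by 1.02. The TN libraries held 8.1, 10.9, 5.62 and 16.2 CPM, a fall by 0.44 (SE 0.133, adjusted p = 0.0334) that overlapped the controls. The TN difference was -0.30, -0.72 and -0.07 within the sets, and -0.15 without the set term (adjusted p = 0.803). The TN call was also lost without control A, TN A or TN C (adjusted p up to 0.163). COL17A1, the collagen of hemidesmosomes, held 252, 268, 238 and 255 CPM in TK, inside the control range of 216 to 408. Controls C to F, of the same set as TK, held 238, 229, 216 and 232 CPM, and within set 2 the difference was 0.15 (SE 0.067). In the fit of all libraries the TK difference of COL17A1 was 0.11 with an interval of 2 SE from -0.042 to 0.258 (adjusted p = 0.357). COL7A1, which forms the anchoring fibrils that link the basement membrane to the stroma, held 3.38, 4.28, 2.83 and 1.93 CPM in TK against 2.71 to 6.15 in controls, a difference of -0.11 (adjusted p = 0.805).

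The dumbbells came with higher levels of 3 collagens, COL5A3 and COL22A1, which were low (means of 2.78 and 5.91 CPM), and COL8A1 (225 CPM). COL5A3 (chr19:9959561-10010471), a chain of the fibril-regulating collagen V, ranged from 1.72 to 3.05 CPM in controls with a median of 1.85. The DB libraries held 5.34, 4.14, 3.42 and 7.83 CPM, all above the highest control. COL5A3 rose by 1.17 (SE 0.201, adjusted p = 0.00058), or 2.25-fold. The rise was 1.24, 0.80 and 1.36 within the sets and held in all 27 fits that left out 1 library. In COM the libraries held 2.97, 4.04, 2.39 and 4.24 CPM, with a difference of 0.57 that did not pass the test (adjusted p = 0.105).

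COL22A1, a collagen of tissue junctions, held 8.03, 7.14, 5.59 and 12.4 CPM in DB, of which all but the C library exceeded the control range of 4.21 to 6.01. It rose by 0.59 (SE 0.151, adjusted p = 0.016). Within the sets the difference was 0.66, 0.06 and 1.27, and the call was lost without control A, control G or DB D (adjusted p up to 0.122). COL8A1, a short-chain network collagen, held 273, 273, 253 and 257 CPM in DB, above the control range of 188 to 246. It rose by 0.27 (SE 0.079, adjusted p = 0.0287), by 0.16 in set 1, 0.37 in set 2 and 0.21 in set 3, and the call was lost when any DB library was left out (adjusted p up to 0.0709).

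**Figure D5:**
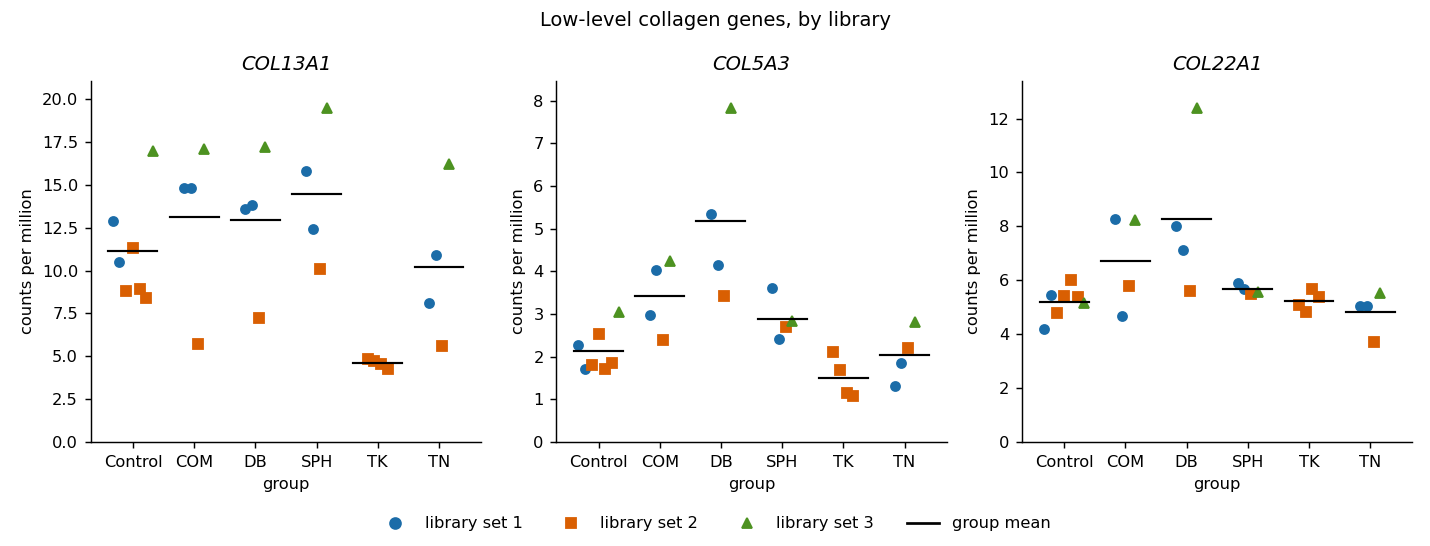
CPM of COL13A1, COL5A3 and COL22A1 in each library by group, with colour and shape for the library set and a line for the group mean. COL13A1 is lowest in the 4 TK libraries (4.27 to 4.83), and COL5A3 in the 4 DB libraries (3.42 to 7.83) lies above every control.

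COL6A1, a chain of the beaded-filament collagen VI, held 3.2, 2.35, 2.23 and 1.78 CPM in TK, while controls ranged from 2.84 to 7.5 with a median of 3.83. It fell by 0.60 in TK (SE 0.184, adjusted p = 0.0284), and in the set 2 libraries alone the difference was -0.45 (adjusted p = 0.141). The call was lost without TK B, TK C or TK D (up to 0.134). COL9A3, of the cartilage collagen IX, held 107, 98.3, 105 and 95.9 CPM in TK and 63.1, 82, 92.5 and 87.2 in TN. Controls ranged from 81.5 to 152 with a median of 115, so both groups overlapped them. Controls C to F, of the same set as TK, held 121, 152, 115 and 117 CPM and lay above all TK libraries. COL9A3 fell by 0.30 in TK (SE 0.098, adjusted p = 0.0413) and by 0.36 in TN (SE 0.095, adjusted p = 0.0159). Without the set term the TK difference was -0.15 (adjusted p = 0.505). The TK call was lost in 14 of the 27 fits without 1 library, and the TN call without control A, TN A or TN C (adjusted p up to 0.0876). COL9A3 overlaps TCFL5 on the opposite strand. COL27A1, named after its values were seen, fell by 0.34 in TN (SE 0.103, adjusted p = 0.0301), and the call was lost without control B, control G, TN A or TN C.

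For TN the number of lower members depended on single libraries. It was 5 without TN B, 2 without TN A, 4 without control A and 11 without TN D, the set 3 library. Without the set term it was 2, LAMB1 and LAMC1. For TK it was 4 without TK C, 6 without TK A and 7 without TK D, and in a fit of TK and the controls of set 2 it was 13. For DB 1 member was called without DB D, and for COM 0 without COM B and 1 without COM A.

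Signs of RNA quality were set beside the TK result. Fragment lengths were 222.9 to 243.2 nucleotides in TK and 197.6 to 235.9 in the set 2 controls. Mitochondrial genes took 3.175% to 3.374% of the counts in TK and 2.562% to 3.747% in those controls, so the ranges overlapped. The summed fibroblast markers, 7 genes of which FAP made up most, ranged from 6.5 to 9.61 CPM in TK and from 7.46 to 11.8 in controls. The summed leukocyte markers (4 genes, mainly CD68) were 4.22 to 5.76 CPM in TK, below the controls at 5.97 to 13.6. The endothelial sum was 2.59 to 3.49 CPM in TK against 2.17 to 15.1. The basal epithelial sum was 4519 to 4981 in TK and 4269.5 to 5813 in controls. The luminal and general epithelial sum was 3853 to 4458 in TK against 3259 to 4111. The part of these in the result was not tested.

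The forms were also compared with each other, in 10 pairs at 1 dose, with p-values adjusted over all genes and pairs. COM and DB, a monohydrate and a dihydrate, gave 0 of 33 members called (1.15% of all genes were), with 4 members at an unadjusted p under 0.05. For LAMB3 the difference between them was 0.18, with an interval of 2 SE from -0.06 to 0.428. TK and TN, the thick and thin bipyramids of the dihydrate, likewise gave 0 called (1.21%), with 3 at an unadjusted p under 0.05. For LAMB1 TK minus TN was -0.11, with an interval from -0.271 to 0.061, and for LAMB3 it was -0.36, with an interval from -0.637 to -0.089 and an adjusted p of 0.131. A p that misses the threshold does not show that these forms act alike.

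In the pairs that follow, all called members were higher in the form named first. COM against TK called 7 (9.94%), led by LAMB3, higher by 1.03 (SE 0.137, adjusted p = 0.000118), and LAMA3, higher by 0.815 (SE 0.14, adjusted p = 0.00128). DB against TK called 9 (11.4%), with COL5A3 higher by 1.54 (SE 0.263, adjusted p = 0.00112). COM against TN called 3 (4.91%), among them LAMA3 and LAMB3. DB against TN called 9 (7.50%), among them COL5A3, higher by 1.33 (SE 0.22, adjusted p = 0.000834), and COL4A6. SPH against TK called 4 (5.18%), which were COL13A1, LAMA3, LAMB1 and LAMB3. SPH against TN called 2 (2.73%), COL13A1 and LAMB1. LAMB1 was higher in SPH than in TK by 0.39 (SE 0.083, adjusted p = 0.00605). DB against SPH called 2 (1.22%), among them COL5A3, higher by 0.78 (SE 0.22, adjusted p = 0.0382), and COM against SPH called 1 (1.60%).

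The enzymes that modify and crosslink collagen were followed as a list of 28, of which 25 were tested. In TK 11 of them fell and 1 rose, where 7.33% and 8.04% of all genes tested did. LOXL2, a lysyl oxidase that crosslinks collagen IV, fell by 1.39 (SE 0.109, adjusted p = 1.94e-08), and LOXL4, of the same family, fell by 1.16 (SE 0.143, adjusted p = 1.5e-05). The prolyl hydroxylase subunits P4HA2 and P4HA1, which stabilise the triple helix, each fell by 0.50 (adjusted p = 0.000424 and 0.000765), and LOXL3 rose by 0.60 (adjusted p = 0.0022). In TN 6 fell and 0 rose, against 4.88% and 6.84% of all genes. There P4HA1 fell by 0.46, P4HA2 fell by 0.41, LOXL2 fell by 0.45 and LOXL4 fell by 0.59. In DB 1 rose, the peroxidase PXDN that forms sulfilimine crosslinks in collagen IV, by 0.30 (adjusted p = 0.0145), and 1 fell, the prolyl isomerase PPIB, by 0.45 (adjusted p = 0.0151). These 2 of 25 are near the shares of all genes called in DB, 5.92% higher and 4.10% lower. COM and SPH called 0 of the 25. The list's median was -0.255 in TK and -0.138 in TN, where the medians of all genes were -0.016 and -0.003.

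Of 16 other basement membrane genes, 11 were tested. In TK 5 fell and 0 rose (all genes, 7.33% and 8.04%), among them SPARC, a collagen IV binding glycoprotein, by 0.35 (adjusted p = 0.000318) and FBLN1, a fibulin, by 0.37 (adjusted p = 0.00298). The others were TINAGL1, NTN4 and HSPG2. In TN 2 fell and 0 rose (all genes, 4.88% and 6.84%), SPARC by 0.23 and FBLN1 by 0.245. In DB 1 fell and 1 rose (all genes, 4.10% and 5.92%). SPARC fell by 0.25 there, and NTN4, a netrin that binds laminin, rose by 0.21. COM and SPH called 0 of the 11.

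Of 17 receptor and hemidesmosome genes, 16 were tested. In TK 4 fell and 1 rose (all genes, 7.33% and 8.04%), ITGB4 of the hemidesmosome among those that fell. ITGA10, a collagen-binding integrin chain, fell by 0.77 (adjusted p = 0.00182), BCAM, a receptor of LAMA5, fell by 0.37 (adjusted p = 0.033), CD151, a tetraspanin partner of laminin-binding integrins, fell by 0.26 (adjusted p = 0.043), and dystroglycan DAG1 rose by 0.27 (adjusted p = 0.00532). In TN 1 was called, ITGA10, which fell by 0.66 (adjusted p = 0.00353). In DB 1 was called, ITGA2, a collagen-binding integrin chain, which rose by 0.49 (adjusted p = 0.017). Each is 6.25% of the list, which is near the share of all genes that fell in TN (4.88%) or rose in DB (5.92%). COM and SPH called 0 of the 16.

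The members also differed between library sets. Against set 1, set 2 had 13 members called, 4 higher and 9 lower, where 27.4% of all genes were called, and set 3 had 10 higher and 0 lower, where 5.34% and 7.74% were. From set 1 to set 2 LAMA3 fell by 0.76 and LAMB3 fell by 0.61, and LAMC1 was higher by 0.27 and LAMB1 by 0.25. A fit with a mean for each group in each set tested whether the mean difference of COM, DB, SPH and TN from control differed between sets 1 and 2. It called 0 of the 33 members (0.0618% of all genes), with 5 at an unadjusted p under 0.05. For LAMA3 the mean difference was higher in set 1 by 0.26 (SE 0.105, adjusted p = 0.464). Because this contrast averages the forms, opposite differences of single forms can cancel in it. The LAMA3 difference in set 1 was 0.73 for COM, 0.50 for DB, 0.12 for SPH and -0.30 for TN. In set 2, which holds only the C library of these forms, it was 0.01, -0.125, 0.25 and -0.14. Whether single forms differed between the sets was not tested.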

How the data were processed

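Polyadenylated RNA was sequenced from 27 libraries, grouped by their titles. The authors deposited 1 table per library with RSEM expected counts per gene, per the file headers. Bowtie2, RSEM and Trim Galore were used, with the build GRCh38, per the submitters' processing notes. Their versions, the annotation and the strand setting are not given here. RSEM splits reads between near-identical genes. Expected counts were rounded and analysed in R 4.3.3 with edgeR 4.0.16 (filterByExpr on the groups, TMM, quasi-likelihood F-test, group plus library set, all libraries), which left 16173 genes. P-values were adjusted by Benjamini-Hochberg over all of them, and a gene was called at an adjusted p under 0.05. SEs come from the fit. CPM are scaled to the TMM-adjusted library size. Gene coordinates are those of GENCODE 29. All 51 pairs of libraries within groups differed by more than sampling noise. The method was tested on simulated data. Alternatives were DESeq2 1.42.0, its size factors in edgeR, other filters, no set term, replicate letters as a block and each library left out.

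Members and lists were chosen with earlier results of these data known. Every library is described for the 16 members with the smallest joint p among called ones and for chosen basement membrane chains, 19 in all, of which 1 is not reported here. Of the partner lists at most 4 called genes a comparison are given values.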

Additional observations from a re-analysis of the deposited data

Results flagged for a closer look

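Among the 19 named members in the 6 groups, the controls with 7 libraries and each form with 4, 4 of 114 combinations had a library far from the rest of its group by Dixon's test, which marks about 1 in 20 groups by chance. COL4A1 was 87.6 CPM in TK B and 78.5 to 80.0 in the other TK libraries. TK B still lay below every control. COL6A1 was 5.66 CPM in TN D, the set 3 library, and 3.43 to 3.7 in the other TN libraries. COL7A1 was 6.8 CPM in SPH D, also of set 3, and 3.93 to 4.42 in the other SPH libraries. LAMB1 was 722 CPM in SPH C, the set 2 library, and 565 to 589 in the other SPH libraries.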

How the results depend on the processing

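No called difference reversed. Without a set term the members called were 1 for COM and 2 for TN. With a replicate block by title letter they were 3 for DB and 2 for TN. Over fits that each left out 1 library, the counts ran from 11 to 16 for the joint test, 0 to 4 for COM, 1 to 5 for DB, 0 to 0 for SPH, 4 to 13 for TK and 2 to 11 for TN. For DB the count was 3 without control A, DB A or DB B. Of the 27 single calls, 27 held with DESeq2, 25 with its size factors, 23 without a filter, 26 at a mean of at least 1 CPM, 17 with the block and 16 without the set term. The cause of each loss was not tested.

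Over all genes, calls fell without the set term from 1029 to 543 for COM, from 1620 to 915 for DB, from 1896 to 695 for TN and from 18 to 7 for SPH. With the block they were 367 for COM, 409 for DB and 396 for TN. Whether title letters pair the samples within a set was not tested. Libraries with the same letter in different sets had deviations correlated at -0.07 to 0.1 (18 pairs, each with a TK library or control D). In the same set the correlations were -0.158 to 0.446 (42 pairs, of which 27 lay above 0.1). The deviations were taken from group means and keep set differences, and different letters of the same set were not compared. Depth limits COL4A3, COL4A4 and LAMA2, which lay below 1 CPM.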

Other observations

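COL6A3, a chain of collagen VI, stood at 6.87 CPM in control D and at 0.4 to 2.22 in the other 26 libraries. It was looked at after its values were seen. TN B, the library with the albumin counts, also held 4632 counts of APOB and 2040 of APOA1, genes of liver lipoproteins, against at most 77 and 25 in the other libraries, and 2246 of LYZ against at most 39.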
